A study of Mus musculus with 1104 samples.

Results

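The comparison set soleus against gastrocnemius, both hindlimb muscles of the calf, in mice that had not yet eaten a high-fat diet, and it took in every expressed gene. It used 6 soleus and 6 gastrocnemius libraries, which are 12 of the 1104 libraries of a study that followed organs of diet-fed mice over time by RNA sequencing. All 12 came from wild-type male C57BL/6 mice (C57BL/6J in the series text) at 0 days of a diet with 60 kcal% fat that began at 8 weeks of age, so both groups share genotype, strain, sex, age and the absence of diet. The labels number the libraries of each muscle from 1 to 6 without saying that a number marks 1 mouse, and they do not give the time of day, so p-values measure the spread between these samples. Of 20646 gene symbols in the table, 12343 passed the filter on low counts and were tested, with 13867905 to 18766540 counts per gastrocnemius library and 9713313 to 18090110 per soleus library.

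Skeletal muscle fibres are sorted by the myosin heavy chain they carry, from slow type I (Myh7) through fast type IIA (Myh2) and type IIX (Myh1) to the fastest, type IIB (Myh4). Slow and type IIA fibres live mainly on mitochondrial oxidation and resist fatigue, whereas type IIB fibres rely on glycogen and glycolysis and tire quickly. The mouse soleus, a postural muscle, is rich in slow and type IIA fibres, and the gastrocnemius is mostly fast. A bulk library holds the RNA of all fibres and of the vessels, nerves, tendon and blood between them, so fewer cells of a type and less RNA per cell cannot be told apart.

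Soleus replicates 1 and 6 stood apart from the rest, and results are therefore given with all 12 libraries and with both left out (10 libraries). For a named gene the second value is printed where it changes the call or moves the difference by over 1.5-fold, and for some others. Genes of cytosolic ribosomal proteins, which have short transcripts, took 10.7% of the counts in soleus 1 and 3.79% in soleus 6, against 1.22 to 1.86% in the other soleus libraries and 0.990 to 1.11% in gastrocnemius. The TMM scaling factor, which corrects for such composition, was 0.374 and 0.754 in these libraries and 1.05 to 1.27 in the other 10. In both of them the deviation of a gene from its median over the 6 soleus libraries fell with transcript length (rank correlation -0.55 and -0.62). Soleus 2 and 4 deviated from that soleus median the other way (0.52 and 0.60). The first principal component, with 70.8% of the variance, placed soleus 1 and 6 at 183 and 98.0, the other soleus and all gastrocnemius libraries between -52.2 and 18.8. Among the libraries of later time points, 17 of 78 soleus and 4 of 78 gastrocnemius libraries had more than 3% of counts on ribosomal protein genes. The cause of this composition was not tested.

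**Figure D1:**
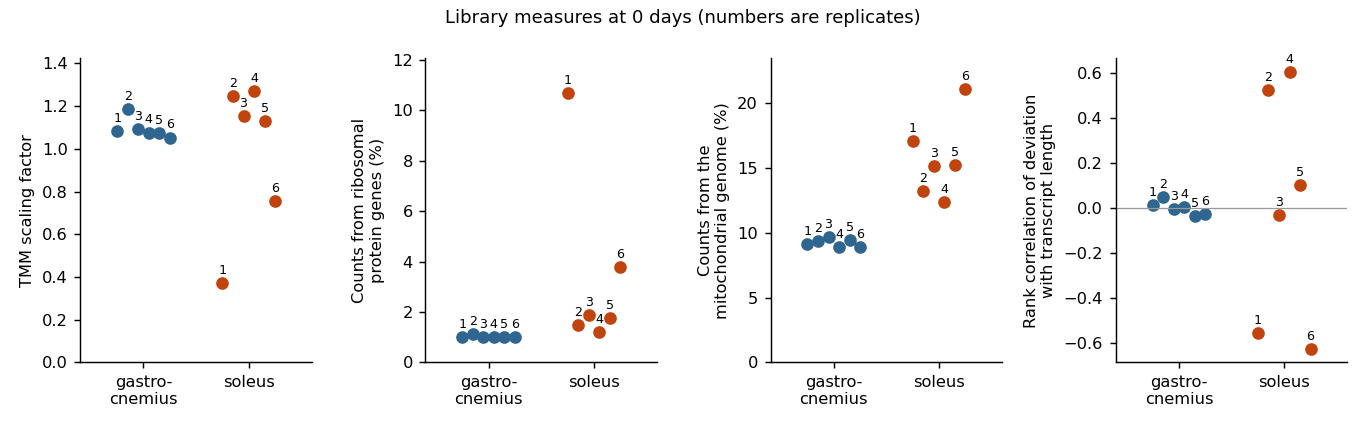
Each point is 1 library at 0 days, labelled with its replicate number, and the panels plot the TMM scaling factor, the percentage of counts on ribosomal protein genes and on the mitochondrial genome, and the rank correlation of each gene's deviation with transcript length. Soleus 1 and 6 have scaling factors of 0.374 and 0.754, below the other 10 libraries at 1.05 to 1.27.

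With 12 libraries, 5080 of 12343 genes (41.2%) differed between the muscles at an adjusted p under 0.05 in edgeR's quasi-likelihood test with Benjamini-Hochberg adjustment, 2868 higher in soleus (23.2%) and 2212 lower (17.9%). At a size of 2-fold or more these were 1901 higher (15.4%) and 1083 lower (8.77%). With 10 libraries 12587 genes were tested, and 3421 were called higher (27.2%) and 2968 lower (23.6%), but only 858 (6.82%) and 820 (6.51%) by 2-fold or more. The 2 analyses shared 681 genes that were 2-fold higher, or 35.8% of those found with 12 libraries, and 695 that were 2-fold lower, or 64.2%. No gene was called in opposite directions by them. The soleus values lay wholly above those of gastrocnemius for 1569 genes (12.7%) and wholly below for 1958 (15.9%).

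Median transcript length differed between the genes that both analyses called by 2-fold and those found with 12 libraries alone, a difference that was not tested. The median summed exon length was 2978.5 bases for the 681 genes higher in both and 5790.5 for the 695 lower in both, beside 4594 for all genes tested. The 1220 genes 2-fold higher with 12 libraries alone had a median of 2165.5 bases, and the 388 lower with 12 alone had 7119. At the later time points, in other libraries, 533 of the 614 shared higher genes that could be followed at all 13 times were higher at every one (86.8%), and 585 of 623 shared lower genes were lower at every one (93.9%). Of the genes higher with 12 libraries alone, 349 of 1206 (28.9%) kept that direction at every later time, and of those lower with 12 alone 326 of 376 (86.7%). The share of all genes tested that kept their direction at every later time was not computed, so these shares have no background beside them. The later libraries belong to mice on the diet, and their own soleus libraries include some with the same excess of ribosomal protein genes.

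Each muscle carried the skeletal actin, creatine kinase and titin genes of its label. Acta1, the actin of the thin filament, was at 23311 to 112101 (median 34149) CPM in soleus (counts scaled by library size and TMM) and 23097 to 28394 (median 27129) in gastrocnemius. Ckm, the muscle creatine kinase, ranged over 7231 to 45704 and 17506 to 22041 CPM, and Ttn, the spring protein titin, over 2637 to 11017 and 10705 to 12744. The groups overlapped for all 3 genes. Here and below, the value after ± of a log2 difference is a standard error derived from the test, not a spread between libraries. Acta1 and Ckm were not called with 12 libraries (adjusted p = 0.0977 and 0.797; with 10, Ckm was lower, -1.01 ± 0.15), while Ttn was lower in soleus by -0.95 ± 0.34 (adjusted p = 0.0405; -0.57 ± 0.17 with 10 libraries). The call on Ttn was lost, with an adjusted p of up to 0.0735, when any 1 of 9 libraries was left out (soleus 3, 5 and 6 and each gastrocnemius library).

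Myosin heavy chain messages split the muscles by type. Scaled for transcript length, Myh4 made up 86.0 to 91.2% of the 4 adult myosin heavy chain messages in the gastrocnemius libraries. In soleus its share was 3.15, 9.02, 12.6, 0.23, 0.33 and 16.3% in replicates 1 to 6. Thus 3 soleus libraries had 9.02 to 16.3% and the other 3 had 0.23 to 3.15%, and none came near the gastrocnemius range. The genes of the fastest myosin share long stretches of sequence with their neighbours on chromosome 11, and how reads that match several of them were counted is not given in the sources used here.

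Type IIA myosin was the most abundant of the 4 in every soleus library. Myh2 took 47.1, 43.4, 40.1, 46.4, 46.0 and 39.6% in soleus replicates 1 to 6, against 2.85 to 4.31% in gastrocnemius. Slow Myh7 stood at 18.8, 26.5, 25.2, 25.8, 26.2 and 16.9% in soleus and at 0.31 to 0.72% in gastrocnemius, and type IIX Myh1 at 21.1 to 31.0% and 5.63 to 9.28%. No share overlapped between the muscles, and for each the exact two-sided permutation test over libraries gave p = 0.0022, the smallest that 6 against 6 can give (adjusted over the 4 shares, also 0.0022). Without soleus 1 and 6 each stayed at the smallest p that 4 against 6 can give, 0.0048.

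**Figure D2:**
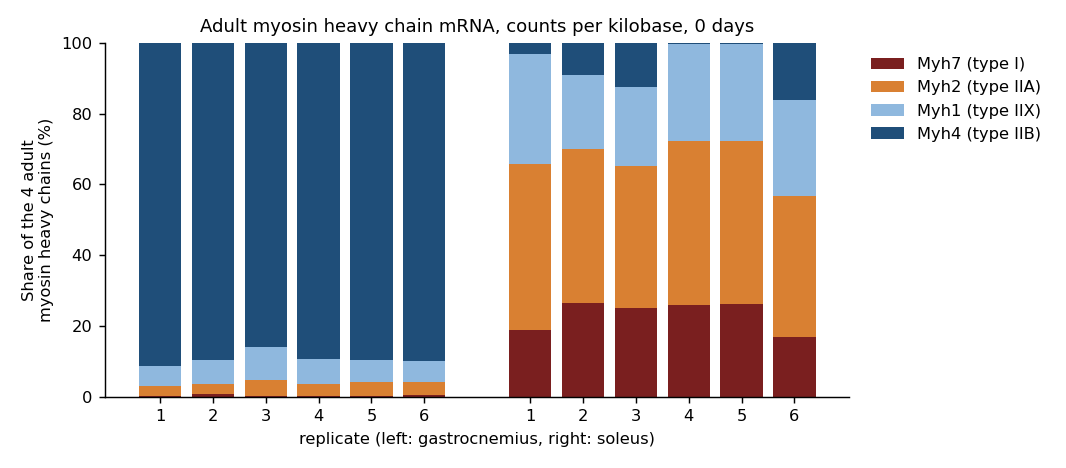
Stacked bars give the share of each adult myosin heavy chain gene, as counts per kilobase of exon, in the 6 gastrocnemius (left) and 6 soleus (right) libraries. Gastrocnemius is 86.0 to 91.2% Myh4, while soleus is mostly Myh2, Myh1 and Myh7 with a Myh4 share between 0.23 and 16.3%.

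Level and share told different things for type IIX. In CPM, Myh1 was 1844 to 8965 in soleus and 4625 to 7378 in gastrocnemius, overlapping ranges with a log2 difference of -0.15 ± 0.38 (adjusted p = 0.769; 0.27 ± 0.20 with 10 libraries). The sum that its share is divided by was far from equal, since Myh4 alone was at 57417 to 71031 CPM in gastrocnemius and 62.7 to 2663 in soleus, a log2 difference of -5.99 ± 0.99 (adjusted p = 0.000666). Myh7 was 3.83 ± 0.54 higher (adjusted p = 0.0002) and Myh2 1.65 ± 0.43 higher (adjusted p = 0.0103). Across the 14 time points of the study the median Myh4 share ran from 88.3 to 91.4% in gastrocnemius and from 0.33 to 6.31% in soleus, and the median soleus Myh7 share from 20.2 to 27.7%.

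All 12 slow contractile genes, which encode the myosin, troponin, tropomyosin and Z disc proteins of slow fibres, were called higher in soleus with 12 and with 10 libraries. Their median log2 difference was 5.22 with 12 libraries and 4.62 with 10, while the median over all genes tested was 0.00 and 0.02. Among all genes tested, 23.2% were called higher and 17.9% lower with 12 libraries, and 27.2 and 23.6% with 10. The same shares stand beside every list count below. For 11 of the 12 the soleus values lay wholly above those of gastrocnemius, as they did for 12.7% of all genes. The call on Mybpc1, slow myosin-binding protein C (0.99 ± 0.32, adjusted p = 0.0274), was lost without soleus 5 or gastrocnemius 1, 2, 4 or 5 (adjusted p up to 0.0635). The summed level of the list was 2749 to 4297 CPM in gastrocnemius and 33334 to 35494 in soleus 2 to 5, with up to 106714 in soleus 1.

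The 3 subunits of slow troponin, the calcium switch of the thin filament, were all far higher in soleus. Tnnc1, the calcium-binding subunit (chr14:31208312-31211729 in GRCm38), was at 1198 to 14123 (median 1976) CPM in soleus and 31.2 to 69.6 (median 37.3) in gastrocnemius, a log2 difference of 6.60 ± 0.72 (adjusted p = 2.87e-05) and of 5.29 ± 0.24 without soleus 1 and 6. Tnni1, the inhibitory subunit, was at 881 to 3871 (median 1247) against 19.4 to 44.2 (median 25.6) CPM (5.94 ± 0.48, adjusted p = 2.58e-06; 5.29 ± 0.23 with 10). Tnnt1, which binds tropomyosin, differed by 5.70 ± 0.43 (adjusted p = 1.74e-06; 5.11 ± 0.19 with 10). Soleus 1 held the highest soleus value of all 3, and even the lowest soleus value was far above every gastrocnemius value.

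The slow myosin light chains were higher too. Myl2, the slow regulatory light chain, was at 31470.4 and 8452 CPM in soleus 1 and 6 and at 2196 to 3383 in the other soleus libraries, against 69.6 to 134 in gastrocnemius. The fitted difference was 6.41 ± 0.79 (adjusted p = 6.88e-05) with 12 libraries and 4.84 ± 0.20 with 10. Myl3, the slow essential light chain, differed by 6.00 ± 0.56 (5.05 ± 0.17 with 10) and Myl6b, a light chain shared with non-muscle cells, by 4.83 ± 0.34. Slow tropomyosin Tpm3 differed by 5.27 ± 0.38. Tpm3 shares sequence with the retrogene Tpm3-rs7, listed at 111 to 374 CPM in soleus, so the split of reads between them is uncertain.

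Fast contractile genes did not mirror this with 12 libraries: 4 of 12 were called lower in soleus and none higher, with a median of -0.26, beside 17.9% of all genes called lower. With 10 libraries 11 of 12 were called lower, with a median of -1.14. The 7 genes gained include both fast light chains. Mylpf, the fast regulatory light chain, was at 49412 and 13403 CPM in soleus 1 and 6, above every gastrocnemius library (5529 to 6710.1), but at 2295 to 4306 in soleus 2 to 5, below all of them. Its log2 difference was 0.99 ± 0.69 with 12 libraries (adjusted p = 0.254) and -0.90 ± 0.16 with 10 (adjusted p = 0.000451).

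The same change of sign appeared for Myl1 (0.12 and -1.15), the fast essential light chain, and for the fast troponin genes Tnni2 (0.76 and -0.44) and Tnnc2 (0.93 and -0.42), none of them called with 12 libraries and all called lower with 10. Of the fast genes 4 were lower in either analysis. Mybpc2, a fast myosin-binding protein, was at 69.2 to 387 (median 233) CPM in soleus and 4972 to 6087 (median 5978) in gastrocnemius (log2 difference -4.66 ± 0.41, adjusted p = 5.07e-06). Actn3, the alpha-actinin of fast Z discs, was at 226 to 1319 against 8415 to 11176 CPM (-3.96 ± 0.42, adjusted p = 2.04e-05), with its lowest soleus values in replicates 4 and 5, the libraries with the least Myh4.

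**Figure D3:**
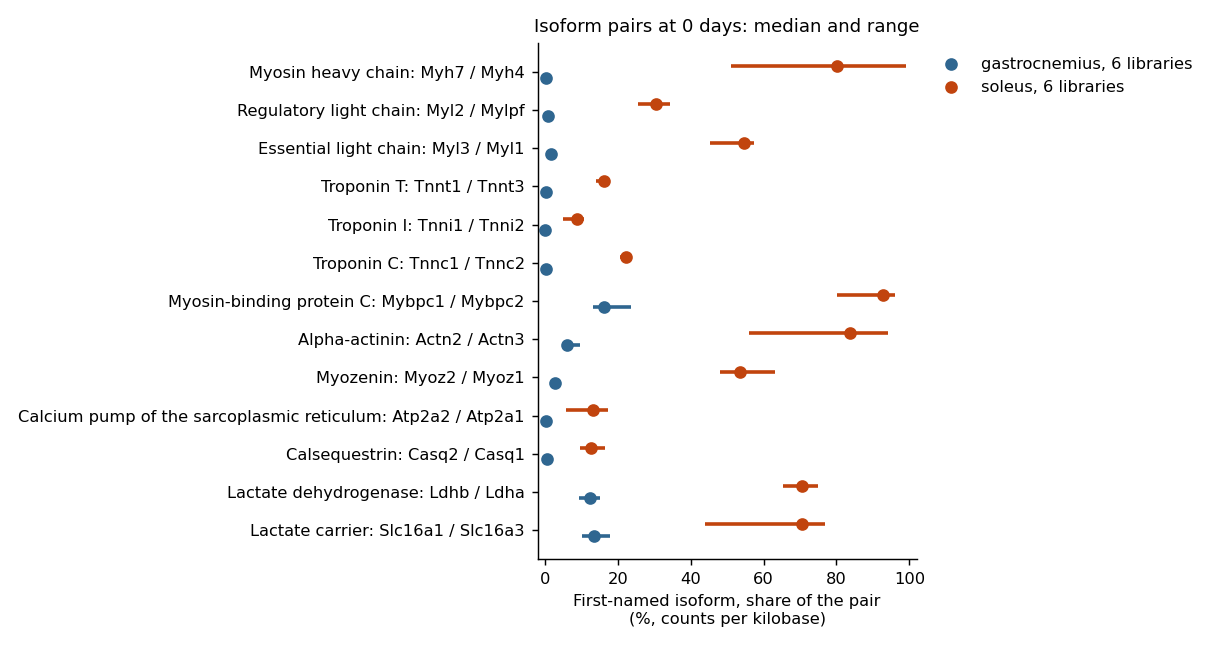
For 13 pairs of a slow or oxidative isoform and its fast or glycolytic counterpart, points give the median and lines the lowest and highest of 6 libraries of the first-named isoform's percentage of the pair, in counts per kilobase. The soleus and gastrocnemius ranges are separate in all pairs, and the slow share in soleus ranges from a median of 8.96% for troponin I to 92.9% for myosin-binding protein C.

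Within a library, isoform pairs can be compared per kilobase, which removes the scaling between libraries. It does not remove a dependence on transcript length, as seen in soleus 1 and 6. The ranges of the muscles were separate in all 13 pairs examined. The slow isoform did not dominate in soleus for every protein. Slow troponin I made up 4.96 to 10.6% of the troponin I pair in soleus, with 0.14 to 0.34% in gastrocnemius, and slow troponin C 20.8 to 22.5% against 0.39 to 0.93%. Slow Mybpc1 made up 80.2 to 96.1% of the myosin-binding protein C pair in soleus and 13.2 to 23.6% in gastrocnemius. Essential light chains were nearly even in soleus, with Myl3 at 45.4 to 57.4%. Without soleus 1 and 6, Myl3 was at 53.9 to 57.4%, slow troponin I at 8.36 to 10.6% and Mybpc1 at 87.4 to 96.1%. Length was the union of all annotated exons, which can differ from the isoform expressed, so shares of a pair are approximate.

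Promoters are shown for a few of the genes that differed most, because the data set them at opposite ends of the comparison. Each window is the 250 bases before the RefSeq start in GRCm38.p6, on the strand of the gene, and capitals mark matches to CAGCTG (an E-box), the MEF2-type core (CTA and TAG with any 4 bases between), CATTCC (the MCAT element), AAGGTCA (a site of oestrogen-related receptors) or TATAAA on either strand. Tnnc1 and Strit1, which encodes a small peptide that relieves inhibition of the calcium pump, were among the genes highest in soleus, and Myh4 and Mybph, a relative of the myosin-binding proteins, among the lowest. They come from the first 3 genes in each direction with a single start in the RefSeq table, with genes of a chosen chromosome left out. Only called genes with a mean of at least 5 CPM were ranked. Tecrl and Mss51, also among these first genes, held none of these letters and are not printed.
Tnnc1, chr14:31208062-31208311, plus strand: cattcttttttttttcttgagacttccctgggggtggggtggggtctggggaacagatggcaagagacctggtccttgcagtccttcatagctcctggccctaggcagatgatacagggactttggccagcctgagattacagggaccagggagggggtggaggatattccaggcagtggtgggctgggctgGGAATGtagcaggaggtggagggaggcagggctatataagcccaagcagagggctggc
Strit1, chr3:63483907-63484156, minus strand: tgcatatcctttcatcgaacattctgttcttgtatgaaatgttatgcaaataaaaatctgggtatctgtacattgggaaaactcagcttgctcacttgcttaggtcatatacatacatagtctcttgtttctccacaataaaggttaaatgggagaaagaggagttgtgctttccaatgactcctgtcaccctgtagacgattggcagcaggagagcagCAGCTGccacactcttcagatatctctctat
Myh4, chr11:67237562-67237811, plus strand: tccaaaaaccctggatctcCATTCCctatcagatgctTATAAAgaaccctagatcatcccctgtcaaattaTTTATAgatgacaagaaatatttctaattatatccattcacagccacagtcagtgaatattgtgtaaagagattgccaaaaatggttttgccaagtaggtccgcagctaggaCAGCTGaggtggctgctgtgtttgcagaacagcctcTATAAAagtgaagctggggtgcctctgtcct
Mybph, chr1:134193198-134193447, plus strand: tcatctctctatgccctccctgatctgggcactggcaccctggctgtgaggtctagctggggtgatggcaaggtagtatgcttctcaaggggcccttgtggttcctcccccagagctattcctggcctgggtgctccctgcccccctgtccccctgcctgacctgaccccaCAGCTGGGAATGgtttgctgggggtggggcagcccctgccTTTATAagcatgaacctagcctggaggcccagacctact
Myh4 and Mybph each held the E-box, MCAT and TATA letters, Strit1 held the E-box, and Tnnc1 held MCAT. Matches are to letters and do not show a site in use. In the 250-base windows of all 32851 promoters in the table, the E-box was found in 13.0%, the MEF2-type core in 3.20%, MCAT in 12.6%, the receptor site in 4.08% and the TATA letters in 12.4%. Among the 687 promoters matched to 511 of the 681 genes 2-fold higher in both analyses these shares were 15.7, 3.35, 13.7, 2.77 and 8.15%, and among 706 promoters of 528 of the 695 lower genes 13.3, 3.26, 10.9, 4.53 and 8.50%. For the 12586 promoters of genes tested they were 12.4, 2.79, 10.8, 2.86 and 6.69%.

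Calcium handling divided by isoform. Of 21 genes of the sarcoplasmic reticulum and its release channel, 4 were called higher in soleus and 10 lower with 12 libraries, and 5 and 14 with 10, with medians of -0.56 and -0.95. All genes tested had 23.2% higher and 17.9% lower with 12 libraries, and 27.2 and 23.6% with 10. Sln, sarcolipin, a peptide that uncouples the calcium pump, had the greatest positive difference of all genes tested: 893 and 232 CPM in soleus 1 and 6, 33.3 to 60.1 in soleus 2 to 5 and 0.459 to 1.4 in gastrocnemius. The fold was 241 with 12 libraries (log2 7.92 ± 0.99, adjusted p = 8.06e-05) and 57.9 with 10 (log2 5.86 ± 0.22). Strit1 was at 3.83 to 149.6 (median 7.25) CPM in soleus and 0 to 0.51 in gastrocnemius, where the 6 libraries held 15 counts in all, and differed by 7.66 ± 1.31 (adjusted p = 0.000875; 5.20 ± 0.55 with 10).

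The cardiac and slow isoforms of the pump and the calcium buffer were higher in soleus and the fast ones lower. Atp2a2, the slow calcium pump, was at 589 to 3959 (median 2836) CPM in soleus and 214 to 299 (median 277) in gastrocnemius (log2 difference 3.22 ± 0.46, adjusted p = 0.000232), and Atp2a1, the fast pump, 4127 to 10899 against 29393 to 37911 (-1.93 ± 0.29, adjusted p = 0.000343). Casq2, the cardiac and slow calsequestrin, was at 223 to 268 CPM in soleus 2 to 5, 90.1 and 206 in soleus 1 and 6, and 19.8 to 23.5 in gastrocnemius (3.28 ± 0.25, adjusted p = 1.8e-06), whereas Casq1 was lower (-1.31 ± 0.24, adjusted p = 0.00145). The fast isoform still made up most of both pairs in soleus. Atp2a2 was 5.74 to 17.2% of the pump pair and Casq2 9.77 to 16.4% of the calsequestrin pair. Without soleus 1 and 6 these ranges were 12.1 to 17.2% and 12.4 to 16.4%.

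Pvalb, parvalbumin, the soluble calcium buffer of the fastest fibres, was at 6199 to 6956 (median 6621) CPM in gastrocnemius and was at 2448, 465, 859, 197, 352 and 2682 in soleus 1 to 6 (log2 difference -2.50 ± 0.59, adjusted p = 0.00663; -3.78 ± 0.34 with 10 libraries). As with Actn3, the lowest soleus values were in replicates 4 and 5. The release channel Ryr1 (-2.21 ± 0.44, adjusted p = 0.00245) and its voltage sensor Cacna1s (-1.16 ± 0.20, adjusted p = 0.000897) were lower in soleus, as was the junctional protein triadin, Trdn (-1.96 ± 0.19). Pln, phospholamban, another inhibitor of the slow pump, was higher (1.41 ± 0.34, adjusted p = 0.0072). Pvalb, Ryr1, Cacna1s and Pln were named for their known roles after their values had been seen.

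**Figure D4:**
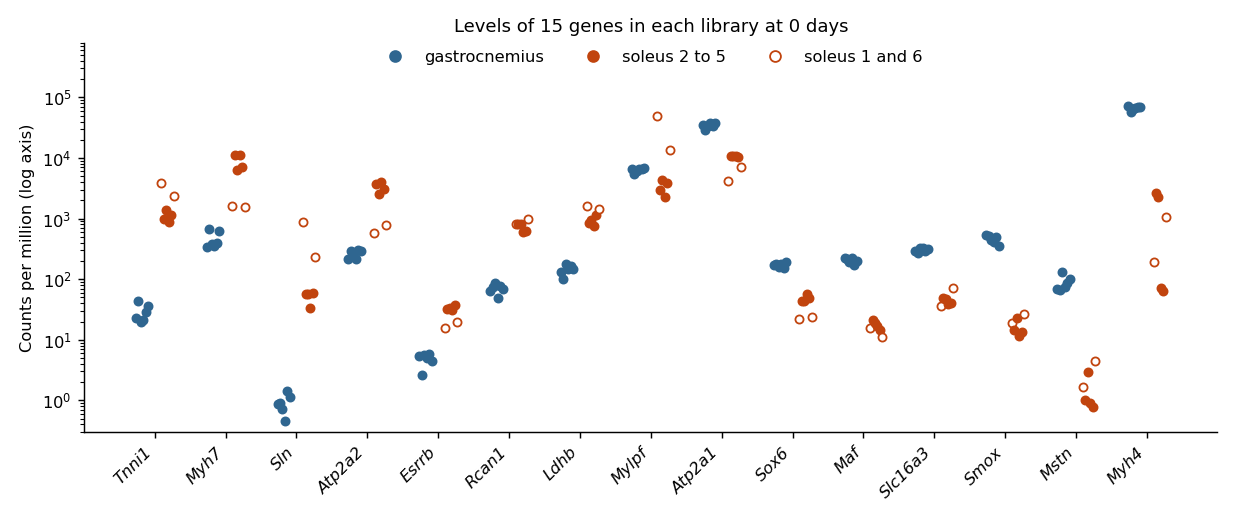
Points give the CPM of each library for 15 genes on a log axis, with soleus replicates 1 and 6 as open circles; heights can be compared between muscles within a gene, not between genes. Tnni1 to Ldhb lie higher in soleus, Mylpf crosses over in soleus 1 and 6, and Atp2a1 to Myh4 lie lower in soleus.

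Stretch and Z disc genes were mostly higher in soleus, 15 of 26 with 12 libraries and 4 lower, and 19 and 6 with 10, with medians of 0.88 and 0.82. Ankrd2, a titin-binding protein that answers to stretch, differed by 4.26 ± 0.38 (adjusted p = 5.38e-06), Csrp3, muscle LIM protein, by 5.57 ± 0.66 (adjusted p = 4.94e-05; 4.30 ± 0.20 with 10 libraries), and Pdlim1, a Z disc adaptor, by 3.78 ± 0.26 (adjusted p = 1.16e-06). Fhl1, a LIM protein of the sarcomere, was at 3125 to 5438 (median 4001) CPM in soleus and 542 to 989 (median 738) in gastrocnemius. Its log2 difference, 2.50 ± 0.24 with 12 and 2.52 ± 0.16 with 10 libraries, was almost the same in both. Actc1, the cardiac actin that developing and regenerating muscle also uses, went the other way, with 26.9 to 92.9 CPM in soleus and 363 to 631 in gastrocnemius (-3.13 ± 0.32, adjusted p = 1.65e-05).

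All 7 small heat shock genes, chaperones that guard the Z disc and cytoskeleton, were called higher in soleus with 12 and with 10 libraries, with medians of 2.72 and 2.04. Hspb7, the cardiovascular member, was at 2293 to 5033 (median 3029) CPM in soleus and 211 to 360.1 (median 279.9) in gastrocnemius (log2 difference 3.61 ± 0.29, adjusted p = 2.9e-06). Cryab, alpha-B crystallin, differed by 3.80 ± 0.61 (2.49 ± 0.14 with 10 libraries) and Hspb6 by 2.72 ± 0.33, and the smallest difference of the list was Hspb8 (0.63 ± 0.20, adjusted p = 0.0253), whose call was lost without soleus 6 or gastrocnemius 1, 4, 5 or 6 (adjusted p up to 0.061). Soleus lay wholly above gastrocnemius for all 7, as it did for 12.7% of all genes tested.

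Calcineurin signalling, which maintains the slow fibre programme, had its feedback inhibitor at a higher level in soleus. Rcan1, which calcineurin induces, was at 604 to 980.3 (median 808) CPM in soleus and 49.3 to 86.2 (median 71.2) in gastrocnemius, a log2 difference of 3.47 ± 0.21 (adjusted p = 7.56e-07) and 3.39 ± 0.15 with 10 libraries, with soleus above gastrocnemius in every library. Its relative Rcan2 was also higher (1.33 ± 0.19). The calcineurin catalytic subunit Ppp3ca (-1.92 ± 0.29) and the calcium/calmodulin kinase Camk2a (-2.75 ± 0.26) were lower in soleus. Of 17 genes on this list 3 were called higher and 7 lower with 12 libraries, and 3 and 8 with 10, with a median of -0.36 both ways. Beside this, 23.2% of all genes were higher and 17.9% lower with 12 libraries, and 27.2 and 23.6% with 10.

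Genes of glucose breakdown were lower in soleus at many of the steps measured. With 12 libraries 7 of 13 glycolysis genes were called lower and none higher, and with 10 libraries 12 of 13 were lower, with medians of -0.87 and -1.26. Pfkm, the muscle phosphofructokinase that commits sugar to glycolysis, differed by -1.47 ± 0.23 (adjusted p = 0.000464), and Eno3, the muscle enolase, by -0.87 ± 0.27 (adjusted p = 0.0233). Aldoa, aldolase, was not called with 12 libraries (-0.62 ± 0.40, adjusted p = 0.22) and was lower with 10 (-1.39 ± 0.15). Pfkfb3, which makes the activator of phosphofructokinase, was at 3.03 to 14.7 (median 10.3) CPM in soleus and 149 to 592 (median 324) in gastrocnemius (-5.08 ± 0.48, adjusted p = 8.5e-06).

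Glycogen genes had 8 of 12 members lower in soleus in both analyses, with 2 higher with 12 libraries and 4 with 10, and medians of -2.09 and -1.89. Pygm, the muscle phosphorylase that releases glucose from glycogen, was at 978 to 2144 (median 1839) CPM in soleus and 6853 to 8418 (median 7996) in gastrocnemius (log2 difference -2.17 ± 0.24, adjusted p = 2.93e-05), so that no soleus library reached the lowest gastrocnemius value. Phkg1, the catalytic subunit of the kinase that switches phosphorylase on, differed by -2.38 ± 0.18. Gys1, glycogen synthase, was not called with 12 libraries (0.20 ± 0.20, adjusted p = 0.422) and higher with 10 (0.41 ± 0.10). Prkag3, an energy-sensing kinase subunit found in fast muscle, was at 4.41 to 17.4 against 120.4 to 177 CPM (-3.86 ± 0.33, adjusted p = 3.84e-06), and the insulin-responsive carrier Slc2a4 did not differ detectably (-0.06 ± 0.17, adjusted p = 0.79).

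Lactate genes changed over between isoforms. Ldhb, the lactate dehydrogenase subunit of oxidative tissue, was at 746 to 1625 (median 1047) CPM in soleus and 102 to 179 (median 146) in gastrocnemius (2.96 ± 0.26, adjusted p = 4.23e-06), with no overlap, and made up 65.3 to 74.9% of the pair with Ldha in soleus and 9.34 to 15.2% in gastrocnemius. The lactate exporter Slc16a3 was at 36.4 to 71.3 (median 43.4) against 265 to 332 (median 303) CPM (-2.69 ± 0.20, adjusted p = 1.55e-06), while the importer Slc16a1 was higher in soleus (0.97 ± 0.27, adjusted p = 0.0146). Mb, myoglobin, which stores oxygen, was at 52927 and 20259 CPM in soleus 1 and 6, 5796 to 9072 in soleus 2 to 5 and 1009.9 to 1553 in gastrocnemius (3.81 ± 0.59; 2.61 ± 0.16 with 10 libraries).

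Genes of fat oxidation were higher in soleus with few exceptions. Of 25 genes of fatty acid uptake and oxidation 23 were called higher and 1 lower with 12 libraries, and 24 and 1 with 10, and here the medians hardly differed, 1.27 and 1.28. Fabp3, the fatty acid carrier of heart and oxidative muscle, was at 21312 and 4361 CPM in soleus 1 and 6, 1410.1 to 2708 in the other soleus libraries and 235 to 349.8 in gastrocnemius (4.28 ± 0.70; 2.79 ± 0.17 with 10). Acadl, a dehydrogenase that opens the oxidation of long chains, differed by 1.47 ± 0.17 (adjusted p = 5.18e-05), and Acaa2, the thiolase of the last step, by 2.01 ± 0.23. Cpt2, which rebuilds fatty acyl-CoA inside the mitochondrion, differed by 0.97 ± 0.17, and the uptake receptor Cd36 by 0.95 ± 0.24 (adjusted p = 0.0088). Soleus lay wholly above gastrocnemius for Fabp3, Acadl, Acaa2 and Cpt2, and the groups overlapped for Cd36. Over the list it lay wholly above for 18 of 25 genes, beside 12.7% of all genes tested. Plin5, which ties lipid droplets to mitochondria, differed by 1.88 ± 0.22 (adjusted p = 4.34e-05). Fabp3, Cpt2 and Cd36 were named after their values had been seen.

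In the citric acid cycle 11 of 17 genes were called higher with 12 libraries and 15 with 10, none lower, with medians of 0.60 and 0.63. Idh2, the mitochondrial NADP-linked isocitrate dehydrogenase, stood out, with 877 to 1794 (median 1187) CPM in soleus and 135 to 237 (median 218) in gastrocnemius (2.62 ± 0.25, adjusted p = 9.51e-06; 2.39 ± 0.16 with 10 libraries). Mdh1, the cytosolic malate dehydrogenase of the shuttle that carries reducing power into mitochondria, differed by 1.86 ± 0.22.

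Respiratory chain genes were higher in soleus in nearly every case, and by how much depended on soleus 1 and 6. Complex I had 34 of 35 nuclear genes called higher with 12 libraries and 35 of 35 with 10, and all 10 of complex III, 13 of complex IV and 15 of ATP synthase were called higher both ways. With an offset for transcript length, the medians of these lists were 0.99, 0.83, 1.14 and 1.41 with 12 libraries. Without it they were 2.69, 2.68, 3.40 and 2.81 with 12 libraries and 0.89, 0.98, 1.19 and 0.98 with 10. Cox6a2, the muscle form of a complex IV subunit, was at 28017 and 4463 CPM in soleus 1 and 6, 716 to 1329 in soleus 2 to 5 and 376 to 479 in gastrocnemius (3.80 ± 0.91; 1.28 ± 0.15 with 10). Sdha, the flavoprotein of complex II, was not called with 12 libraries (0.15 ± 0.23) and higher with 10 (0.37 ± 0.08, adjusted p = 0.00249).

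Counts on the mitochondrial genome took 17.1, 13.3, 15.1, 12.4, 15.2 and 21.1% of each soleus library and 8.88 to 9.69% of each gastrocnemius library. The means were 15.7% ± 3.12 (SD, n = 6) and 9.23% ± 0.31 (SD, n = 6), with p = 0.0022 in the exact two-sided permutation test, and the soleus mean without replicates 1 and 6 was 14.004% ± 1.40 (SD, n = 4; exact p = 0.0048). Gene by gene the difference was uneven. Of 13 genes 12 were tested, and 9 were called higher with 12 libraries and 6 with 10, with medians of 1.34 and 0.30. These counts moved with single libraries and with the model: 2 or 3 genes were called without soleus 6 or any 1 gastrocnemius library, 6 without soleus 1, and with an offset for transcript length 1 was higher and 1 lower (median -0.07). mt-Co1, a complex IV subunit, was at 40279 to 144299 CPM in soleus and 27245 to 30977 in gastrocnemius (1.37 ± 0.37; 0.77 ± 0.14 with 10), whereas mt-Nd5, of complex I, did not differ detectably (-0.13 ± 0.20; 0.01 ± 0.10). Poly(A) selection captures these messages unevenly, so their share does not measure mitochondrial content.

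**Figure D5:**
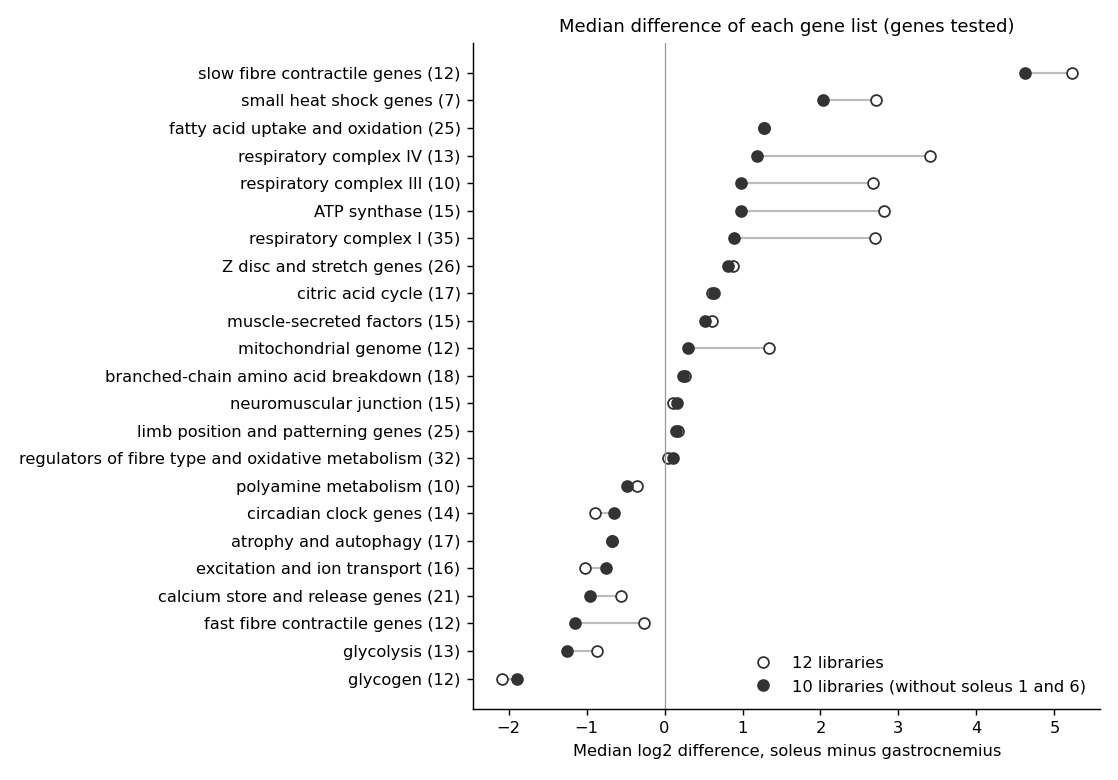
Each row is a gene list with the number of its genes tested, and circles mark the median log2 difference (soleus minus gastrocnemius) with 12 libraries (open) and with 10 (filled). Fatty acid oxidation stays at 1.27 and 1.28, while respiratory complex IV moves from 3.40 to 1.19 and fast contractile genes from -0.26 to -1.14.

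Transcription factors of fibre type split in both directions: of 32 regulators 10 were called higher in soleus and 11 lower with 12 libraries, and 14 and 12 with 10, with medians of 0.04 and 0.11. Beside this, 23.2% of all genes were higher and 17.9% lower with 12 libraries, and 27.2 and 23.6% with 10. Sox6, a repressor of slow genes, was at 22 to 56.8 (median 44.1) CPM in soleus and 153 to 190.3 (median 174) in gastrocnemius (log2 difference -2.09 ± 0.24, adjusted p = 3.91e-05). Maf, a factor linked to type IIB myosin, was at 11.2 to 20.8 (median 16.3) against 169.6 to 223 (median 209.7) (-3.64 ± 0.19, adjusted p = 1.59e-07), and Eya4, a cofactor of homeodomain factors, 2.76 to 8.24 against 42.7 to 51.4 (-3.00 ± 0.22, adjusted p = 1.6e-06). Tbx15, a factor of glycolytic fibres, differed by -1.28 ± 0.26 (adjusted p = 0.00296). None of these 4 overlapped between the muscles, and each was lower with 10 libraries too. Soleus lay wholly below gastrocnemius for 15.9% of all genes tested and for 11 of the 32 regulators.

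Receptors and coactivators of oxidative metabolism did not share a direction. Esrrb, an orphan nuclear receptor of the oestrogen-related family, was at 15.7 to 36.8 (median 31.6) CPM in soleus and 2.66 to 5.74 (median 5.19) in gastrocnemius (2.56 ± 0.25, adjusted p = 1.18e-05), and its relative Esrrg was 1.71 ± 0.43 (adjusted p = 0.00873). Esrra, the third of that family, differed by 0.75 ± 0.17 (adjusted p = 0.00543), while Ppard, a fatty acid receptor, was lower (-1.07 ± 0.26, adjusted p = 0.00809). Ppara, its relative, was not called with 12 libraries (0.37 ± 0.32, adjusted p = 0.364) and higher with 10 (0.76 ± 0.17), and neither Ppargc1b (0.06 ± 0.38) nor Nrf1 (0.02 ± 0.13) was called either way. The calls on Esrra and Ppard were lost when libraries were scaled by totals alone. Prox1, needed for slow fibres in development, differed by 1.87 ± 0.43 (adjusted p = 0.00545), Vgll2, a cofactor of TEAD factors, by 2.02 ± 0.25 (adjusted p = 7.89e-05), and Ppargc1a, the coactivator of mitochondrial biogenesis, by 0.78 ± 0.24 (adjusted p = 0.0223). The call on Ppargc1a was lost without gastrocnemius 2 or 4 (adjusted p of up to 0.0508). Tbx15, Prox1, Vgll2, Esrra, Esrrg, Ppara, Ppard, Ppargc1a, Ppargc1b and Nrf1 were named after their values had been seen.

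The myogenic factors Myog and Myod1 did not run together at later times. Myog, myogenin, was 1.42 ± 0.27 higher (adjusted p = 0.00181) and was called higher at 11 of 13 later times. Myod1, the factor associated with fast fibres, was not called with 12 libraries (0.34 ± 0.13, adjusted p = 0.055) and called higher with 10 (0.40 ± 0.12, adjusted p = 0.013), yet at 11 of 13 later times it was called lower in soleus, and the difference ranged from -2.26 to -0.15 there. Whether time 0 differs from the later times for Myod1 was not tested.

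Of 32 genes that pattern the limb and its muscles 25 were tested, and of these 4 were called higher and 6 lower with 12 libraries (median 0.17), and 8 and 5 with 10 (0.15). Of all genes tested at 0 days, 23.2% were higher and 17.9% lower with 12 libraries, and 27.2 and 23.6% with 10. The counts for this list were near those shares. Hoxd8, a homeobox gene of the HoxD cluster, was at 5.23 to 10.7 (median 8.11) CPM in soleus and 29 to 40.4 (median 36.6) in gastrocnemius (-2.11 ± 0.17, adjusted p = 2.47e-06), and its neighbour Hoxd9 differed by -1.63 ± 0.18 (adjusted p = 3.82e-05). Lbx1, which marks progenitors that migrate into the limb, was lower (-0.71 ± 0.14, adjusted p = 0.0021). Each was called the same way at 13 of 13 later times. Of all genes tested, 33.6, 39.2, 35, 51.2, 22.5, 10.6, 21.4, 53.4, 32.8, 28.6, 60.2, 20.8 and 48.5% were called at these times in order, from 1 day to 12 weeks, with the fewest at 3 weeks and the most at 8 weeks.

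At the nerve contact 15 of 18 genes were tested, and 5 were called higher in soleus and 2 lower with 12 libraries, and 6 and 2 with 10, with medians of 0.11 and 0.16. All genes tested had 23.2% higher and 17.9% lower with 12 libraries, and 27.2 and 23.6% with 10. Chrna1, the alpha subunit of the acetylcholine receptor, was at 25.9 to 47.1 (median 34) CPM in soleus and 11 to 16.1 (median 12.8) in gastrocnemius (1.44 ± 0.18, adjusted p = 6.62e-05), and the delta subunit Chrnd differed by 1.21 ± 0.23 (adjusted p = 0.00185). The adult epsilon subunit Chrne was lower (-0.87 ± 0.19, adjusted p = 0.00418), as was the esterase Ache (-1.07 ± 0.17, adjusted p = 0.00044), while its collagen tail Colq was higher (0.86 ± 0.14). The subunits of 1 receptor thus did not share a direction.

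Excitability genes were mostly lower in soleus, 9 of 16 in both analyses, with 4 and 6 higher and medians of -1.01 and -0.75. For all genes tested the shares were 17.9% lower and 23.2% higher with 12 libraries, and 23.6 and 27.2% with 10. Kcnc4, a potassium channel that ends the action potential quickly, was at 1.65 to 8.74 (median 4.76) CPM in soleus and 46.8 to 67.9 (median 58.8) in gastrocnemius (-3.43 ± 0.31, adjusted p = 6e-06). Clcn1, the chloride channel that steadies the membrane, differed by -1.65 ± 0.33 (adjusted p = 0.0025), the muscle sodium channel Scn4a by -1.84 ± 0.45 (adjusted p = 0.00826), and Atp1b2, a subunit of the sodium pump, by -3.08 ± 0.30. Chrne, Clcn1, Scn4a and Lbx1 were named after their values had been seen.

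Several of the genes lowest in soleus have no contractile role. Mybph, a relative of the myosin-binding proteins, is given here only beside its neighbour Adora1. Mstn, myostatin, the secreted brake on muscle growth, was at 0.786 to 4.43 (median 1.33) CPM in soleus and 66 to 129 (median 80.6) in gastrocnemius (-5.51 ± 0.46, adjusted p = 3.63e-06). Mss51, a mitochondrial protein gene of fast muscle, was at 0.359 to 1.75 (median 0.488) against 13.9 to 211 (median 59.7) CPM, with the most spread of these genes within gastrocnemius (-6.82 ± 0.71, adjusted p = 1.91e-05). Adora1, an adenosine receptor, was at 1.29 to 3.83 against 65.5 to 105 (-5.10 ± 0.29, adjusted p = 3.19e-07), and Mybph, which adjoins it on chromosome 1, at 1.24 to 5.83 against 168.5 to 263 (-5.96 ± 0.38, adjusted p = 7.76e-07). How reads shared by these neighbours were counted is not given in the sources used here. Plcd4, a phospholipase, had the smallest p of all genes tested, with 9.64 to 11.3 CPM in soleus and 109 to 144 in gastrocnemius (-3.47 ± 0.14, adjusted p = 2.53e-08).

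Polyamine genes were lower in soleus in 5 of 10 cases and higher in 3, in both analyses, with medians of -0.35 and -0.48. Smox, spermine oxidase, was at 11.3 to 26.5 (median 16.7) CPM in soleus and 351 to 529 (median 463) in gastrocnemius (-4.67 ± 0.27, adjusted p = 3.19e-07), and Amd1, which supplies the aminopropyl groups for spermidine and spermine, 12.9 to 64.1 (median 49.6) against 839.6 to 1374 (median 1183) (-4.62 ± 0.37, adjusted p = 2.47e-06). Reads of Amd1 and its near copy Amd2 (-3.44 ± 0.29) cannot be told apart with certainty. Among secreted factors, Fndc5, the irisin precursor, differed by 2.03 ± 0.21, Metrnl, a meteorin-like hormone, by 2.40 ± 0.37 (1.79 ± 0.14 with 10) and Bdnf, a neurotrophin, by 2.84 ± 0.33. The whole list, myostatin included, had 15 of 16 genes tested, of which 7 were called higher and 1 lower with 12 libraries (median 0.61) and 9 and 3 with 10 (0.52). The polyamine and secreted lists stand beside 23.2% of all genes higher and 17.9% lower with 12 libraries, and 27.2 and 23.6% with 10.

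Atrophy and autophagy genes were called lower in 8 of 17 cases and higher in 1 with 12 libraries, and 10 and 2 with 10, with medians of -0.67 and -0.68. Fbxo32, the ubiquitin ligase atrogin-1, was -1.63 ± 0.32 (adjusted p = 0.00232). Circadian genes had 7 of 14 lower and 3 higher with 12 libraries and 9 and 3 with 10, with medians of -0.89 and -0.65. The atrophy and circadian lists stand beside 17.9% of all genes lower and 23.2% higher with 12 libraries, and 23.6 and 27.2% with 10. Per2, a core repressor, was at 0.827 to 6.29 (median 4.68) CPM in soleus and 14.6 to 34.8 (median 29.7) in gastrocnemius (-2.60 ± 0.33, adjusted p = 9.2e-05), and Arntl, a core activator, was higher (0.91 ± 0.18, adjusted p = 0.00242). Whether the muscles were dissected at the same time of day is not given in the sources used here, and its part in the circadian result was not tested.

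Further lists are given beside the shares of all genes tested, of which 23.2% were higher and 17.9% lower with 12 libraries and 27.2 and 23.6% with 10. Branched-chain amino acid breakdown had 4 of 18 genes called higher and none lower with 12 libraries and 9 with 10 (medians 0.26 and 0.23). Lipid droplet genes had 8 of 13 higher and 2 lower both ways (0.61 and 0.49), and antioxidant genes 10 of 19 higher and 2 lower, or 11 and 4 with 10 (0.76 and 0.34). Glucose uptake and insulin signalling genes had 4 of 19 higher and 5 lower, close to those shares, or 6 and 6 with 10 (-0.13 and -0.02). Mitochondrial dynamics genes had 3 of 14 higher and 1 lower, or 4 and 2 with 10 (0.13 and 0.12), and 3 of 12 immediate early genes were higher and none lower both ways (0.41 and 0.26). All 4 succinate dehydrogenase genes of complex II were higher with 10 libraries and 3 with 12. Of 10 developmental and cardiac sarcomere genes 6 were tested, 4 of them higher and 2 lower both ways.

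Counts for markers of other cells stand beside 23.2% of all genes called higher and 17.9% lower with 12 libraries, and 27.2 and 23.6% with 10, and the part of these cells in the results above was not tested. Endothelial markers summed to 524 to 785 CPM in soleus 2 to 5, down to 268 in soleus 1, and 519 to 576 in gastrocnemius; 3 of 13 were called higher with 12 libraries and 9 with 10. Tendon markers summed to 523 to 1828 CPM in soleus and 318 to 748 in gastrocnemius, with 4 of 13 called higher with 12 libraries and 8 with 10. Scx, the defining tendon factor, differed by 3.47 ± 0.64 and 1.98 ± 0.13. Satellite cell markers had 6 and 7 of 10 called higher, but 0 of 10 when libraries were scaled by totals alone and 3 without gastrocnemius 4, 5 or 6 or soleus 2 or 4, with summed levels of 145 to 239 and 150.2 to 176 CPM, and Pax7, their defining factor, was at 1.28 to 5.75 and 1.55 to 2.7 CPM (0.89 ± 0.33, adjusted p = 0.0484). The Pax7 call was lost, with an adjusted p of up to 0.108, when any 1 of 9 libraries was left out (soleus 2 to 5 and every gastrocnemius library but the second).

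Red blood cell genes were higher in soleus, 5 of 5 in both analyses, with sums of 122 to 213 CPM in soleus 2 to 5, up to 1769.9 in soleus 1, and 59.2 to 67.6 in gastrocnemius; globin genes share sequence, so their split is uncertain. Schwann cell and nerve markers went the other way, 6 and 7 of 12 lower, at 98.4 to 254 against 212 to 367 CPM. Smooth muscle and pericyte markers summed to 379 to 948 and 577 to 677 CPM, with 3 of 10 called higher and 1 lower, or 5 and 1 with 10. Adipocyte markers overlapped widely, 293 to 1643 and 201 to 835 CPM, with 1 of 9 called higher both ways. The 3 brown adipocyte markers tested were higher, at only 9.47 to 28.4 CPM in all against 1.59 to 3.93, and Ucp1, the defining one, did not pass the filter on low counts. Fibroblast markers (1339 to 4092 and 1709.8 to 2698 CPM, 2 of 12 higher and 1 lower, or 2 and 2 with 10) and macrophage markers (63.1 to 414 and 73.1 to 255 CPM, 1 of 10 higher and 1 lower, or 1 and 2 of 11 with 10) overlapped in their sums.

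The genes 2-fold apart in both analyses were followed through the diet, when 10.6% (3 weeks) to 60.2% (8 weeks) of all genes tested were called in either direction. Of the 681 genes 2-fold higher in both analyses, between 57.2% (368 of 643 tested, at 3 weeks) and 97.8% (653 of 668, at 8 weeks) were called higher again at each of 13 later times. Of the 695 lower genes, between 58.4% (371 of 635, at 3 weeks) and 93.2% (617 of 662, at 12 weeks) were called lower again. The median gene of either set was called the same way at 13 of 13 times, beside 6 for the 1220 genes higher with 12 libraries alone and 8 for the 388 lower with 12 alone. Sln, Tnnc1, Tnni1, Myh7, Rcan1, Esrrb, Mstn, Smox, Myh4, Mybpc2 and Plcd4 were each called the same way at 13 of 13 times, and Sox6 at 12 of 13 and Mb at 11 of 13. In the study's 13 organs at 0 days, soleus had the highest mean CPM for 215 of the 681 higher genes (31.6%) and gastrocnemius for 141 of the 695 lower genes (20.3%), beside 6.59% and 4.43% of all genes tested; the choice of the sets by this comparison favours those muscles.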

How the data were processed

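Poly(A) RNA of soleus and gastrocnemius was sequenced as strand-specific libraries, per the labels' protocols, from 6 samples of each muscle at 0 days. The authors deposited a table of raw read counts per gene symbol, and values here are these counts. The submitters' processing notes name the aligner HISAT2 2.1.0 and the counter featureCounts 1.6.3 with GRCm38, beside Trimmomatic 0.38, FastQC 0.11.7 and SAMtools 1.9. Not given in the sources used here are the annotation, the strand setting and the treatment of multi-mapping reads. Of 1104 columns, 234 were used and 870 were not. Library totals were 9713313 to 18766540 counts.

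Genes passing edgeR's expression filter were scaled by TMM and tested across all of them with edgeR 4.0.16 (quasi-likelihood F test, Benjamini-Hochberg adjustment, call at 0.05) in R 4.3.3, on the 12 libraries without a block, and again on 10 libraries without soleus 1 and 6, an alternative added after the data were seen. CPM are counts over the TMM-scaled library size, except in the comparison across organs, which used library totals. The value after ± of a log2 difference is its standard error, derived from the F statistic. Gene models came from GENCODE M21 (GRCm38), matched by symbol for 20319 of 20646 genes, and promoters from RefSeq (GRCm38.p6). Myosin and mitochondrial shares were compared with exact permutation tests. Alternatives were other scalings, no filter, DESeq2 1.42.0, limma 3.58.1 voom with quality weights, all libraries of both muscles in one model, the replicate number as a block, each library left out, and an offset for transcript length (added after the data were seen). No 2 libraries of a group agreed within sampling noise (chi-square over degrees of freedom at least 4.81).

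In counts simulated from these libraries, 67, 67 and 66 genes were changed by 1.5-fold, 2-fold and 4-fold. The 12-library test recovered 1.49, 28.4 and 90.9% of these changes over 12276 genes, with 1.23% of 81 calls false. The 10-library test recovered 44.8, 82.1 and 98.5% over 12488 genes, with 7.98% of 163 calls false. Far fewer genes were changed there than the 5080 of 12343 called in the data with 12 libraries. These shares therefore hold for the simulated counts only and are not error rates of the reported lists. Named genes were the 15 with the largest and the 15 with the smallest difference among called genes with a mean of at least 5 CPM, the 10 with the smallest p in each direction, the isoform pairs, and of each list the 4 members with the smallest p and every member of lists of at most 14. Acta1, Ttn, Slc2a4, Myog, Myod1 and those marked in the report were named for their roles after their values had been seen. The members and gene lists were chosen with earlier results of these data known.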

Additional observations from a re-analysis of the deposited data

Results flagged for a closer look

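For each quantity and muscle, the gap between the outermost of the 6 libraries and its neighbour was divided by the range of the group, and 20 of the 116 groups examined, 12 in soleus and 8 in gastrocnemius, exceeded Dixon's 95% critical value for 6 libraries. Chance alone passes this limit in about 1 group in 20. Soleus 1 accounted for most of the soleus cases. Its median correlation with the other soleus libraries was 0.806, with the next lowest at 0.927, and its share of ribosomal protein genes was 10.7%, with the next highest at 3.79%. It held the highest soleus level of Sln (893 CPM), Strit1 (149.6 CPM), Tnnc1 (14123 CPM), Myl2 (31470.4 CPM), Mylpf (49412 CPM), Fabp3 (21312 CPM), Mb (52927 CPM) and Cox6a2 (28017 CPM), and the lowest of Casq2 (90.1 CPM). Soleus 6 held the highest Slc16a3, at 71.3 CPM.

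Gastrocnemius 2 had the highest scaling factor of its group, 1.19, the lowest median correlation, 0.974, and the highest share of ribosomal protein genes, 1.11%. Gastrocnemius 3 had the lowest Myh4 share, 86.0%, and the group's outermost levels were 23097 CPM for Acta1 (lowest), 7378 CPM for Myh1 (highest), 376 CPM for Cox6a2 (lowest) and 144 CPM for Plcd4 (highest).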

How the results depend on the processing

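The number of genes called, 5080 with TMM, was 2909 when libraries were scaled by their totals alone, which moved the median log2 difference of all genes by -0.13, and 4842 to 7313 under the other scalings, filters and tools. Scaled by totals, 15 of 25 fat oxidation genes were called higher and 7 of 12 fast contractile genes lower. Of 117 named genes with a test 101 were called, and 12 calls were lost with this scaling. With the offset for transcript length on 12 libraries, 4 were lost. List medians changed sign among scalings for lists near 0, which were the endothelial, fibroblast and macrophage markers, mitochondrial dynamics and the regulators. At 2-fold or more, 2984 became 1846 with limma's quality weights (865 higher, 981 lower), 1678 with 10 libraries (858 and 820) and 1529 with 10 libraries and the length offset (727 and 802). Leaving out 1 library at a time gave 4029 to 5892 calls and, at 2-fold, 2195 to 3588. With the replicate number as a block, 3302 genes were called (1458 higher, 1844 lower), and at 3, 4, 7 and 10 weeks 727, 1266, 2211 and 4178. The labels do not say whether a number pairs the libraries. In their deviations from the muscle means, same-numbered libraries correlated at -0.02 to 0.13. Of 6 gastrocnemius libraries, 2 correlated best with the soleus library of their own number. Such weak correlations cannot decide whether a number marks 1 mouse. Among genes discussed in the report, the block lost the calls on Hspb8, Myh2, Mybpc1, Ppargc1a, Pax7, Ttn and mt-Co1. Over whole lists the block left 14 of 35 complex I genes called higher, 6 of 10 of complex III, 9 of 13 of complex IV, 8 of 15 of ATP synthase, 0 of 12 of the mitochondrial genome and 3 of 10 satellite cell markers.

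Signs changed for 4 fast-fibre genes, and for some with differences near 0, such as Myh1 and mt-Nd5. The log2 difference of Mylpf was -0.73 with limma's quality weights, -0.90 with 10 libraries, -0.96 with the length offset and -1.35 with both changes. The log2 difference of Myl1 was -1.01, -1.15, -0.82 and -1.38 in the same order. The log2 difference of Tnni2 was -0.44 with 10 libraries, -0.51 with the offset and -0.77 with both, and the log2 difference of Tnnc2 was -0.42, -0.97 and -0.97. Without soleus 1 alone, 10 named genes moved by over 1.5-fold, Strit1 most after Cox6a2, to 5.89, and without gastrocnemius 5 Strit1 was 8.46. Counts of 9713313 to 18766540 per library leave genes near the filter on low counts undecided.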
